A study of Mus musculus with 47 samples.

Results

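Muscle stem cells (satellite cells) of mice fed a high-fat diet were compared with those of mice fed its control diet at a single time of day, zeitgeber time 0 (ZT0), the start of the light phase in the usual convention. The comparison holds 8 of the 47 arrays of the series, 4 from high-fat mice and 4 from control mice, chosen by the diet and time in their titles. Every mouse of both diets was a wild type C57B6/J female, put on its diet at 8 weeks of age, fed ad libitum for 7 weeks and 15 weeks old at sampling. The other 39 arrays came from the same 2 diets at ZT4, ZT8, ZT12, ZT16 and ZT20, and were used to ask which differences departed at ZT0 from the rest of the day. They also entered the estimate of spread behind every standard error and p at ZT0. One array was made per mouse from 25 ng of total RNA amplified over 17 cycles. All mice of a time point were collected on 1 day, so the diets at ZT0 share their collection day, whereas time and day cannot be told apart. How the cells were isolated is not given in the sources used here. The model is limited to 1 sex, 1 strain and 1 duration of feeding.

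Satellite cells lie between the muscle fibre and its basement membrane, rest in quiescence in uninjured muscle, and are marked by the transcription factor Pax7. A high-fat diet is known in mice to change when and how much animals eat and to alter the daily rhythm of many transcripts in several tissues. Immediate early genes, among them the Nr4a nuclear receptors and the Fos and Egr families, answer within minutes to growth factors, stress and cyclic AMP.

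The defining markers of satellite cells were high. Pax7 averaged 10.90 in high-fat and 10.76 in control samples, on the log2 scale used throughout, and Myf5 averaged 10.51 and 10.53. Genes known from other cells of muscle were as bright in part. In high-fat and control samples the fibroblast gene Dpt averaged 11.45 and 11.24, Col3a1 11.41 and 11.12, Gsn 11.43 and 11.42 and Dcn 10.34 and 9.98. The smooth muscle and pericyte genes Acta2 and Myh11 averaged 11.10 and 10.82 in high-fat and 11.19 and 10.99 in control samples. The leukocyte marker Ptprc was at 3.92 and 3.88 and the fibro-adipogenic marker Pdgfra at 4.38 and 4.44, both under the expression filter of 5.80. Of 20 immune markers, however, 6 lay above the filter, among them Cd68 (7.95 and 8.81), H2-Aa (7.59 and 7.52) and Cd79a (7.33 and 7.77). The erythroid gene Hba-a2 averaged 10.92 and 11.02 and the Schwann gene Pmp22 10.5 and 10.2. The mean level over 23 satellite cell identity genes was 9.64 to 9.70 in high-fat samples and 9.57 to 9.61 in control samples. None of its 22 members above the filter was called. The mean levels of the marker lists of myofibre, endothelial, immune, pericyte, Schwann, erythroid, adipocyte and fibro-adipogenic cells overlapped between the diets. The overlap was slight for the fibro-adipogenic list, at 7.71 to 8.08 in high-fat and 7.55 to 7.71 in control samples, and for the adipocyte list, at 6.10 to 6.44 and 5.89 to 6.14 with 4 of 7 genes above the filter. By far the widest gap in the adipocyte list was that of Fabp4 (6.58 and 5.20). This gene was left out by the filter and is also in the endothelial list. Adipoq (4.40 and 4.63) and Retn (6.47 and 6.54) went the other way. In bulk RNA, fewer cells of a type and less RNA per cell cannot be told apart.

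Of 10258 genes tested with limma, 365 differed between the diets at ZT0 at a Benjamini-Hochberg adjusted p under 0.05, which is 3.56% of those tested. Such genes are referred to as called. In high-fat samples 136 were higher (1.33%) and 229 lower (2.23%). The changes were modest: the median absolute difference of called genes was 0.49, 120 passed 1.5-fold, and 6 higher and 7 lower genes passed 2-fold. The 4 high-fat and 4 control samples did not overlap for 295 of the 365 called genes, against 9.99% of all genes tested. Calls and non-overlap rest on the same 8 arrays, so this excess is built in. Non-overlap was also a condition for ranking the largest differences below, and adds no separate support for those genes. The split of directions depended on the scaling of the arrays. Higher genes made up 37.3% of calls on the deposited scale, 55.6% after cyclic loess and 52.5% after subtraction of array medians, while all 365 genes kept their direction under both. Along the first principal component of the 8 arrays (29.5% of variance) the diets separated, with scores of 12.3, 12.3, 3.21 and 18.2 in high-fat and of -12.8 to -8.59 in control samples, so that high-fat replicate 3 lay nearest to the controls. The number of calls depended on single arrays. It was 122 without high-fat replicate 4, 175 without high-fat replicate 1 and 223 without high-fat replicate 2, and 194, 200 and 193 without control replicate 1, 2 or 4.

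**Figure D1:**
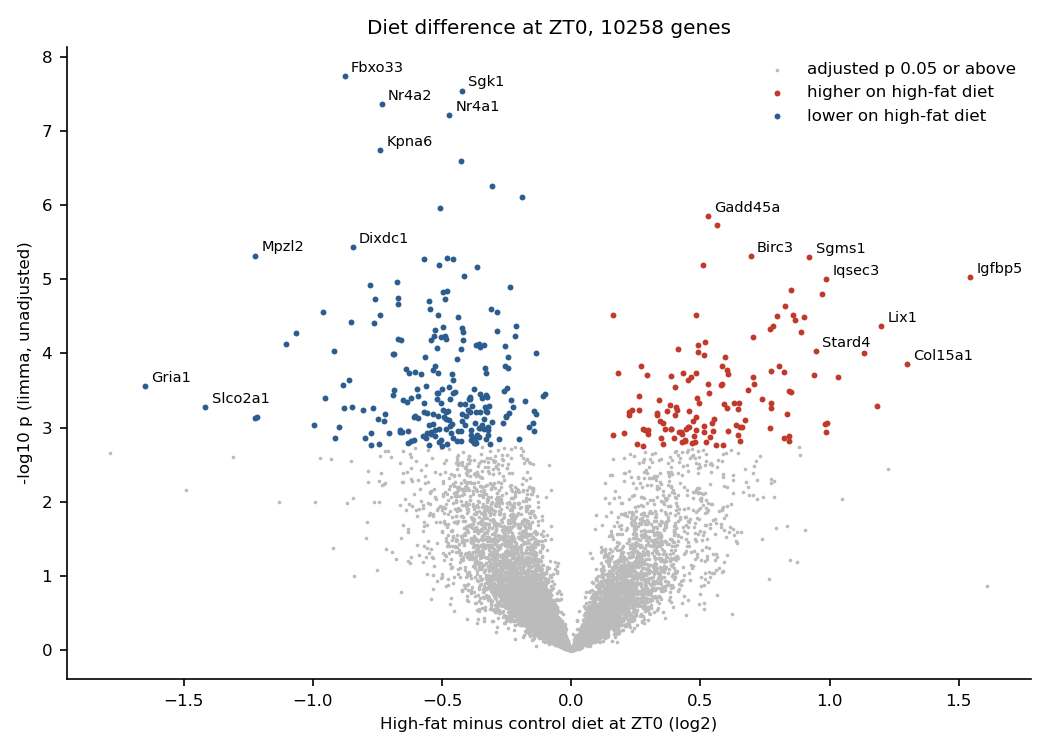
Difference between the diets at ZT0 (x axis, high-fat minus control, log2) against the unadjusted limma p (y axis, −log10) for 10258 genes. Red points are the 136 genes called higher and blue points the 229 called lower in high-fat samples; Fbxo33, Sgk1, Nr4a2 and Nr4a1 have the smallest p, and Igfbp5 is the called gene farthest to the right.

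The genes with the strongest statistical support were lower in high-fat samples and included nuclear receptors of the immediate early class. Nr4a1 and Nr4a2 are orphan receptors whose genes are textbook targets of CREB, the factor bound to the cyclic AMP response element TGACGTCA. Ppp1r15a (GADD34), which directs protein phosphatase 1 to the initiation factor eIF2 alpha, and Dio2, which converts thyroxine to the active thyroid hormone and is induced by cyclic AMP in brown fat, were lower too. Their promoters are shown because all carry this element or its shortened form TGACG. The motif was chosen after the genes' values were seen. Capitals mark each TGACG or its reverse complement CGTCA, searched on both strands, and the sequences run from 250 bases before to 50 bases after the transcription start (RefSeq, GRCm38.p6). They lie at chr15:101266596-101266895 on the plus strand for Nr4a1, and on the minus strand at chr2:57123954-57124253 for Nr4a2, chr7:45526219-45526518 for Ppp1r15a and chr12:90738989-90739288 for Dio2.
Nr4a1: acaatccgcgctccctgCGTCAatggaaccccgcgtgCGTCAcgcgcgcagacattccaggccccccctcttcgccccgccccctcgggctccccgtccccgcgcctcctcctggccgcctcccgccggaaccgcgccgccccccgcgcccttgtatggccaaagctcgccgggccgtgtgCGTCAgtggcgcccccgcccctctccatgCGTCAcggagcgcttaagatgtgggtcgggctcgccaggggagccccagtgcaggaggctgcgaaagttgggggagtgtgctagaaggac
Nr4a2: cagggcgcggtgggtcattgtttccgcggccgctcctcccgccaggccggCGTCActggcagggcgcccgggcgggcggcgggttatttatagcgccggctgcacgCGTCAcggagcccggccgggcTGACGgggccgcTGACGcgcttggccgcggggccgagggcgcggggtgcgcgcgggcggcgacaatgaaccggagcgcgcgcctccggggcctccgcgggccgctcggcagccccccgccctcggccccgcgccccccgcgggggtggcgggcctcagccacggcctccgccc
Ppp1r15a: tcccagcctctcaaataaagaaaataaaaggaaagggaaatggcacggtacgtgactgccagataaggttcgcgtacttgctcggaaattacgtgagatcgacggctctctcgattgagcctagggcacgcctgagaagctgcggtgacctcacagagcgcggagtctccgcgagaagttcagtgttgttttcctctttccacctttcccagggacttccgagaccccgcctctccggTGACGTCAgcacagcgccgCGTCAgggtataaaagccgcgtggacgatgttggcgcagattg
Dio2: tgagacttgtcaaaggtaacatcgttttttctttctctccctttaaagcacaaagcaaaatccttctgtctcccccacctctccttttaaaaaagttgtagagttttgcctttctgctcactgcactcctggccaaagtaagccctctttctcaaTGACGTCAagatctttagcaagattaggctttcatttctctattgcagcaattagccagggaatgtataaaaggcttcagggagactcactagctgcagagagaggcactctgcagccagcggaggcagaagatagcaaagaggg
Nr4a1 and Nr4a2 each held 4 matches to TGACG, which 0.231% of the 32851 promoters of the table do, and 20.8% hold at least 1. Of the 8282 genes tested with a promoter in the table, 0.543% hold 4 or more and 3.48% the full TGACGTCA. Ppp1r15a and Dio2 held the full TGACGTCA, present in 1.79% of promoters; it contains TGACG on both strands, so each full element counts as 2 overlapping matches. Of genes with a promoter in the table, 40.7% of the 182 lower and 29.5% of the 112 higher genes held TGACG, against 35.1% of the 8282 tested, and 5.49% of the lower and 4.46% of the higher genes held TGACGTCA. These are letters in a window and say nothing of binding.

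Nr4a1 was at 10.51, 10.57, 10.69 and 10.58 in the high-fat samples and at 11.10, 10.99, 11.06 and 11.10 in the control samples. Every high-fat sample lay below every control sample, and the spread within a diet was small beside the gap. The difference was -0.47 ± 0.07 (SE, n = 4 each; adjusted p = 0.000158 in limma). Nr4a2 was at 9.65, 9.67, 9.86 and 9.79 in high-fat samples, against 10.67, 10.39, 10.30 and 10.55 in control samples. It was 1.66-fold lower on the high-fat diet (-0.73 ± 0.11, adjusted p = 0.000149) and the samples did not overlap. The Nr4a2 call was lost with the probe set of largest variance (-0.56, adjusted p = 0.103), and 1 of its 3 other probe sets above the filter ran the other way. Both calls passed in each refit that left out 1 array. Of 27 immediate early genes tested, 4 were lower (14.8%, against 2.23% of all genes) and none higher, and the median of the list was -0.06 against -0.03 over all genes. The other lower members were Ier3, an anti-apoptotic early gene (-0.39), and Fosl2, a Fos family subunit of AP-1 (-0.20), and they did not withstand the omission of arrays. Ier3 missed the threshold without 1 of 5 arrays (high-fat 1 or 4, control 1, 2 or 4), with adjusted p of 0.0514 to 0.106. Fosl2 missed it without any 1 array other than control 3 (0.058 to 0.186). The list then counted 2 members without high-fat replicate 1 or control replicate 1, 2 or 4, and 3 under each rescaling.

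Ppp1r15a was at 10.51, 10.41, 10.69 and 10.60 in high-fat samples and at 10.98, 10.82, 10.82 and 10.94 in control samples. The diets did not overlap, and the difference of -0.34 ± 0.08 passed (adjusted p = 0.010). Dio2 averaged 7.37 ± 0.13 in high-fat and 8.25 ± 0.18 in control samples (SD, n = 4 each), a 1.84-fold lower level with no overlap (adjusted p = 0.0208). Without control replicate 1 or 4 it missed the threshold (adjusted p 0.0514 and 0.0667).

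Further lower genes with strong support act in protein turnover, hormone signalling and nuclear import. Fbxo33, an F-box protein that recruits substrates to an SCF ubiquitin ligase, was at 7.98, 7.68, 7.89 and 7.91 in high-fat samples and at 8.83, 8.67, 8.58 and 8.88 in control samples. All high-fat samples were lower, with a difference of -0.88 ± 0.12 (adjusted p = 0.000148). Sgk1, a kinase induced by glucocorticoids and serum, was at 10.88, 11.03, 11.07 and 11.14 in high-fat and at 11.47, 11.41, 11.54 and 11.38 in control samples. Its difference was smaller (-0.42 ± 0.06) with the same adjusted p. Of 17 glucocorticoid response genes tested, Sgk1 and Klf15, a glucocorticoid-induced transcription factor, were lower (11.8%, against 2.23% of all genes) and none was higher. The high-fat mean of Klf15 was 5.61, under the expression filter of 5.80. Klf15 (-0.57, adjusted p = 0.0297) missed the threshold without 1 of high-fat replicates 2, 3 or 4 or control replicates 1 or 3 (adjusted p up to 0.114), so that 1 member remained called without replicate 2 or 3 of the high-fat diet or replicate 1 or 3 of the control diet.

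Kpna6 and Kpna2 encode importin alpha adaptors, which carry proteins with a nuclear localisation signal through the nuclear pore. Kpna6 was at 7.53, 7.54, 7.54 and 7.39 in high-fat samples and at 8.29, 8.49, 8.04 and 8.15 in control samples. Its 4 high-fat values were close together and all below the controls (-0.74 ± 0.12, adjusted p = 0.000371). Kpna2 averaged 8.57 ± 0.11 in high-fat and 9.25 ± 0.20 in control samples (SD, n = 4 each; difference -0.67, adjusted p = 0.00445). Of 38 nuclear transport genes 3 were lower (7.89%, against 2.23% of all genes) and none higher, with a list median of -0.08 against -0.03 over all genes.

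Other lower genes that passed without any 1 array came from several processes. Slc7a8, a transporter of neutral amino acids, was at 7.15, 7.27, 7.38 and 7.09 in high-fat and at 8.40, 7.55, 7.92 and 8.07 in control samples (-0.76 ± 0.16, adjusted p = 0.00561). Its control samples were more scattered than its high-fat samples. Zfp622, a factor in the maturation of the large ribosomal subunit, averaged 9.82 ± 0.18 in high-fat and 10.33 ± 0.13 in control samples (SD, n = 4 each; difference -0.51, adjusted p = 0.0033). Sf3b1, the core of the U2 spliceosome particle, differed by -0.19 ± 0.03, a 1.14-fold change at high expression. Htra3, a secreted serine protease, differed by -0.42, and Dixdc1, a Wnt pathway protein with a DIX domain, by -0.85. Other probe sets of Htra3 and Dixdc1 disagreed. With the probe set of largest variance the adjusted p was 0.548 for Htra3 and 0.902 for Dixdc1, whose difference was then 0.08. With the mean over probe sets, Zfp622 and Dixdc1 missed the threshold as well (adjusted p = 0.115 and 0.0756), and so did Htra3 (0.365).

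**Figure D2:**
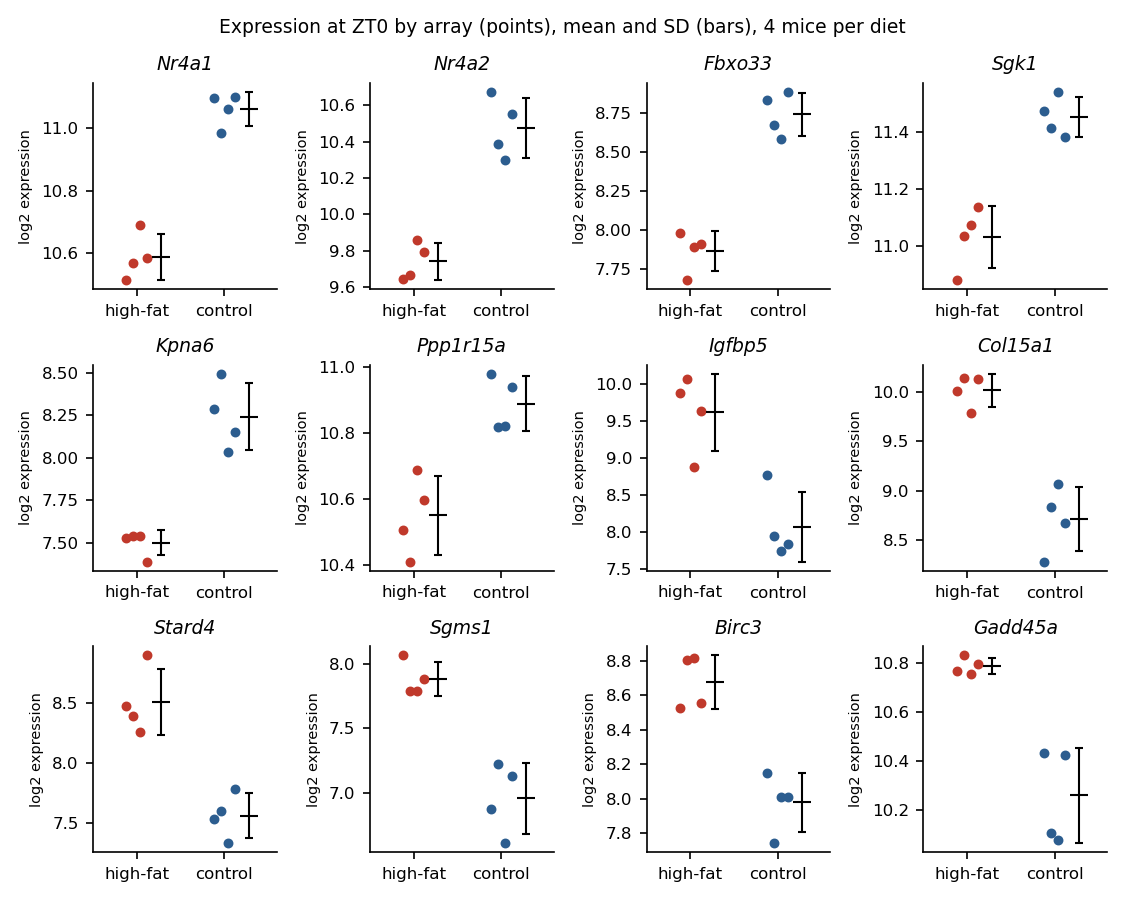
Log2 expression (y axes, not starting at 0) of 12 genes in the 4 high-fat samples (red, left) and the 4 control samples (blue, right) at ZT0; bars show the mean and SD. The diets do not overlap in any of the 12 panels, with Nr4a1 at 10.51 to 10.69 in high-fat and 10.99 to 11.10 in control samples.

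Among higher genes, Igfbp5, a secreted binding protein of insulin-like growth factors that is abundant in muscle, had the largest difference among called genes. It was at 9.89, 10.07, 8.89 and 9.64 in high-fat samples and at 8.77, 7.95, 7.75 and 7.84 in control samples. High-fat replicate 3 lay only just above control replicate 1, and the other samples were far apart. It was 2.92-fold higher (1.54 ± 0.30, adjusted p = 0.0042) and passed without any 1 array.

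Of the collagens, the fibrous and network proteins of the extracellular matrix, 25 were tested, and 4 were higher (16%, against 1.33% of all genes) and none lower. A difference above 0 was seen for 20, against 4408 of the 10258 genes tested. The median of the collagens was 0.18 against -0.03 over all genes. Col15a1, a basement membrane collagen, was at 10.01, 10.14, 9.78 and 10.13 in high-fat samples and at 8.29, 8.83, 9.07 and 8.68 in control samples. It was 2.46-fold higher with no overlap (adjusted p = 0.0149), and missed the threshold without control replicate 1 (adjusted p = 0.0564). Col6a2, a chain of collagen VI in the satellite cell niche, averaged 9.33 ± 0.48 in high-fat and 8.56 ± 0.10 in control samples, and missed the threshold without high-fat replicate 1 (adjusted p = 0.0525). Its partner chain Col6a3 (1.19) overlapped between the diets. It missed the threshold without 1 of high-fat replicates 1 or 4 or control replicates 1 or 4 (adjusted p 0.0692 to 0.148). Col4a1, of the basement membrane network, differed by 0.26. It missed the threshold without 1 of 5 arrays (high-fat 1, 3 or 4, control 1 or 4), with adjusted p of 0.0578 to 0.105. Without high-fat replicate 1 or control replicate 1, 1 collagen was called, and without replicate 4 of either diet 2 were, whereas cyclic loess called 7 and median subtraction 6. Of 11 fibro-adipogenic markers tested none was called, 9 had a difference above 0, and the median was 0.21. Scara5 averaged 7.74 in high-fat and 6.51 in control samples (adjusted p = 0.0721), Smoc2 6.97 and 6.13, Col1a1 9.91 and 9.14, and Dcn 10.34 and 9.98. Thy1 averaged 7.72 in high-fat and 8.26 in control samples, and Pdgfra was under the filter in both diets. The part of other cells in the collagen values was not tested.

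Of 17 genes tested in the cholesterol synthesis list, 2 were higher and none lower (11.8% higher, against 1.33% of all genes). A difference above 0 was seen for 15, against 4408 of the 10258 genes tested, and the list median was 0.28. Stard4, which carries sterols between membranes and is not a synthesis enzyme, was at 8.48, 8.39, 8.26 and 8.90 in high-fat and at 7.53, 7.60, 7.33 and 7.79 in control samples. It was 1.93-fold higher without overlap (0.95 ± 0.22, adjusted p = 0.0112), and missed the threshold without high-fat replicate 4 (adjusted p = 0.0661). Fdps, which makes farnesyl diphosphate and was the only synthesis enzyme called, averaged 7.62 ± 0.38 in high-fat and 6.88 ± 0.17 in control samples (adjusted p = 0.0251). It missed the threshold without 1 of 5 arrays (high-fat 2 or 4, control 2, 3 or 4), with adjusted p of 0.052 to 0.111. Consequently no member of the list was called without high-fat replicate 4, and 1 was without high-fat replicate 2 or control replicate 2, 3 or 4. Idi1 and Hsd17b7, enzymes before and after farnesyl diphosphate in the pathway, had values of 0.71 and 0.50 with adjusted p of 0.0766 and 0.105. Sgms1, which makes sphingomyelin from ceramide, was at 8.06, 7.79, 7.79 and 7.88 in high-fat and at 6.87, 7.22, 6.61 and 7.13 in control samples. It was 1.9-fold higher (0.92 ± 0.17, adjusted p = 0.00309) and passed without any 1 array. None of 19 fatty acid synthesis genes was called (median 0.04). Of 28 fatty acid oxidation genes and PPAR targets, 1 was lower (3.57%, against 2.23% of all genes), and the median was -0.15.

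Birc3, an inhibitor of apoptosis that ubiquitinates components of the NF-kB pathway and is itself an NF-kB target, was at 8.53, 8.80, 8.82 and 8.56 in high-fat and at 8.15, 7.74, 8.01 and 8.01 in control samples. Every high-fat sample lay above every control sample. The difference was 0.69 ± 0.13 (adjusted p = 0.00309), and with the probe set of largest variance the adjusted p was 0.0948. Of 18 NF-kB genes tested, 3 were higher and none lower (16.7% higher, against 1.33% of all genes), with a median of 0.12. The others were Tnfaip3, the deubiquitinase A20 that dampens the pathway (0.49), and the chemokine Cxcl1 (0.77). Tnfaip3 missed the threshold without 1 of high-fat replicates 1 or 2 or control replicates 2 or 4 (adjusted p 0.0534 to 0.0846). With its probe set of largest variance the adjusted p was 0.930. Cxcl1 missed the threshold without 1 of high-fat replicates 1, 2 or 4 or control replicates 2 or 4 (0.057 to 0.0974). The list thus held 1 called gene without replicate 1 or 2 of the high-fat diet or replicate 2 or 4 of the control diet. None of 21 interferon response genes was called. The immune marker list averaged 5.31 to 5.50 in high-fat and 5.43 to 5.52 in control samples, and its macrophage gene Cd68 was lower (-0.86, adjusted p = 0.0184), though not without 1 of high-fat replicates 2 or 4 or control replicates 1 or 4 (adjusted p up to 0.0941).

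**Figure D3:**
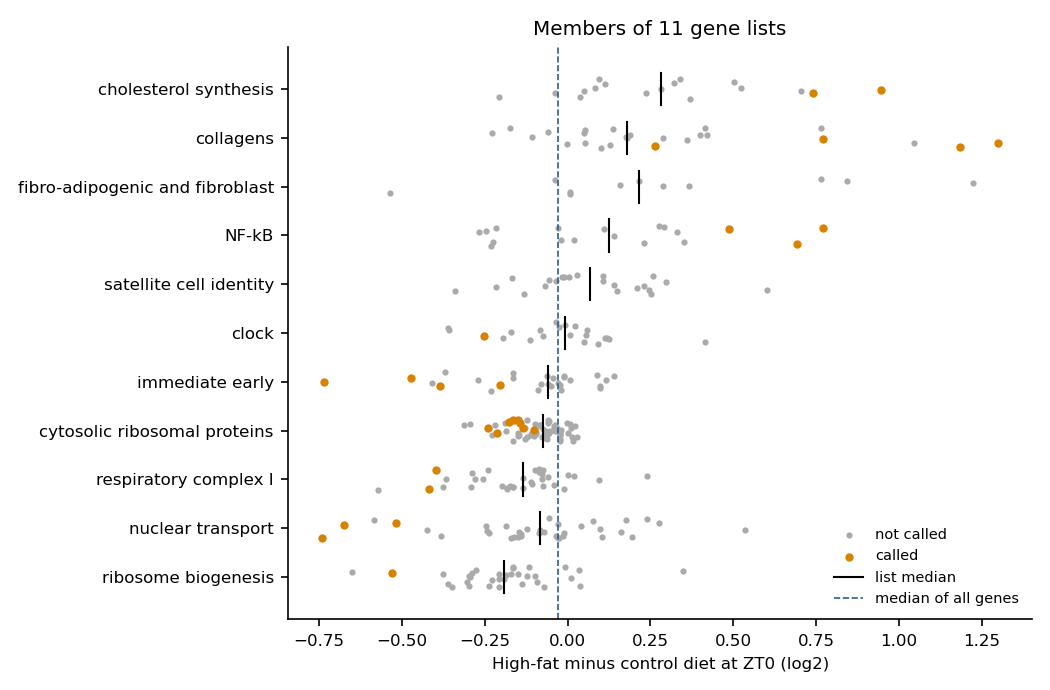
High-fat minus control difference at ZT0 (x axis, log2) for each tested member of 11 gene lists; orange points are called genes, black bars list medians, and the dashed line is the median of all genes (-0.03). Cholesterol synthesis has a median of 0.28 and collagens of 0.18, whereas ribosome biogenesis has -0.19 and complex I -0.13.

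The largest differences between the diets were ranked among called genes whose samples did not overlap, 15 in each direction. Of these 30, 12 passed in all 8 refits that each left out 1 array. The 8 higher ones were Igfbp5, Lix1, Iqsec3, Vav3, Sgms1, Zim1, Msrb3 and 4930562F07Rik, and the 4 lower ones Mpzl2, Scn7a, Mat2b and Fbxo33. Lix1 was 2.3-fold higher (7.34 to 7.95 in high-fat, 5.95 to 6.96 in control samples). Iqsec3, an exchange factor for ARF GTPases, was at 8.63, 8.82, 8.69 and 8.89 in high-fat samples, above the 7.58, 7.93, 7.67 and 7.90 of control samples. Its samples were tight within each diet (0.99 ± 0.19, adjusted p = 0.00421). Vav3 was higher by 0.97, and Zim1, an imprinted zinc finger gene, by 0.90. Msrb3, which repairs oxidised methionine, was higher by 0.86, but its other probe set above the filter gave -0.05, as that of Vav3 gave -0.02.

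Mpzl2, an adhesion protein of the immunoglobulin family, was at 7.86, 8.20, 8.64 and 8.10 in high-fat and at 9.28, 9.65, 9.60 and 9.19 in control samples. It was 2.34-fold lower with no overlap (-1.22 ± 0.23, adjusted p = 0.00309). Scn7a, the sodium-sensing channel Nax, averaged 8.44 ± 0.23 in high-fat and 9.40 ± 0.23 in control samples (-0.96, adjusted p = 0.00678), and with the mean over probe sets its adjusted p was 0.161. Mat2b, the regulatory subunit of the enzyme that makes S-adenosylmethionine, was at 5.64 to 5.98 in high-fat and 6.54 to 7.01 in control samples (-0.92, adjusted p = 0.0112). Its high-fat mean of 5.78 lay just under the expression filter of 5.80.

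The other 18 of the 30 depended on at least 1 array. The lower ones were Gria1, the AMPA receptor subunit GluA1 (-1.65), Slco2a1, the prostaglandin transporter (-1.42), Btbd11 (-1.23), Flrt1 (-1.22), Atg101, of the complex that starts autophagy (-1.10), and Ppat, which commits phosphoribosyl pyrophosphate to purine synthesis (-1.07). Rab11fip5 (-0.95), Ank2 (-0.91), Pdk2, a kinase that inhibits pyruvate dehydrogenase (-0.90), Dio2 and Mocs1 (-0.88 each) complete that direction. The high-fat means of Gria1 (5.17) and Btbd11 (5.56) lay under the expression filter of 5.80, as did the control mean of Igsf10 (5.55). The higher ones were Col15a1, Tmem255a (1.13), Matn2, a matrilin of the matrix (1.03), Igsf10 (0.99), Steap4, a metalloreductase (0.99), Islr (0.98) and Stard4. Without high-fat replicate 4, 14 of the 30 missed the threshold, with adjusted p of 0.0528 to 0.178, and without control replicate 1, 12 did (0.0514 to 0.177). Without high-fat replicate 1 or 2, 9 each did (up to 0.190 and 0.107). Without control replicate 2, 3 or 4, 8, 6 and 7 did (up to 0.0974, 0.116 and 0.122), and without high-fat replicate 3 only Btbd11 did (0.0584). Atg101 and Ppat missed it without high-fat replicate 4 alone (0.0756 and 0.0528), and Tmem255a without control replicate 2 alone (0.0533).

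Calls among genes of translation and respiration were few and all lower. Of 68 cytosolic ribosomal protein genes, 61 had a difference below 0, against 57.0% of all genes, and 8 were called lower (11.8% against 2.23%), with a list median of -0.08. Rps15 was at 11.27, 11.14, 11.17 and 11.14 in high-fat and at 11.47, 11.44, 11.36 and 11.40 in control samples. Rps21 was at 11.85, 11.89, 11.72 and 11.70 in high-fat and at 12.09, 12.07, 11.93 and 11.93 in control samples. Neither gene's samples overlapped between the diets. Both passed without any 1 array, but not with the probe set of largest variance (adjusted p = 0.185 and 0.292). The count was sensitive to scaling and to arrays. Cyclic loess called 2 ribosomal genes and median subtraction 4, and the omission of an array called 2 (high-fat 4), 3 (control 2), 4 (high-fat 1 or 2, control 1) or 5 (control 4). Ncl, the nucleolar protein nucleolin, was at 9.68, 9.28, 9.45 and 9.46 in high-fat and at 10.10, 9.85, 9.93 and 10.11 in control samples (-0.53 ± 0.12, adjusted p = 0.00911). It was the only one of 33 ribosome biogenesis genes called (3.03% lower, against 2.23% of all genes), and 29 of them had a difference below 0 (median -0.19). In respiratory complex I, 30 of 34 genes had a difference below 0 (median -0.13), and 2 were called lower (5.88%, against 2.23% of all genes). Ndufb5 (-0.42) and Ndufs7 (-0.40), both subunits of the complex, were lower. Ndufb5 missed the threshold without control replicate 2 (adjusted p = 0.0545) and with the probe set of largest variance (0.187). Ndufs7 missed it without 1 of high-fat replicates 2 or 4 or control replicates 2 or 3 (0.063 to 0.0902). The complex then held no called gene without control replicate 2, and 1 without high-fat replicate 2 or 4 or control replicate 3. The list medians stayed below 0 under both rescalings. Ftl1, the light chain of the iron store ferritin, was lower as well, at 11.04 ± 0.05 in high-fat and 11.30 ± 0.10 in control samples (adjusted p = 0.0103). None of 42 proteasome genes and none of 22 glycolysis genes was called.

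Growth arrest, apoptosis and cell cycle genes moved in both directions. Gadd45a, a growth arrest gene induced by DNA damage and stress, was at 10.77, 10.83, 10.76 and 10.80 in high-fat and at 10.43, 10.10, 10.08 and 10.43 in control samples. High-fat samples were nearly identical, and all above the controls (0.53 ± 0.09, adjusted p = 0.00146). Bbc3 (PUMA), a p53 target that promotes apoptosis, was lower, with 7.55 ± 0.13 in high-fat and 8.12 ± 0.10 in control samples (adjusted p = 0.00309). Ccnd1, the cyclin of the entry into the cell cycle, was at 10.41, 10.55, 10.80 and 10.24 in high-fat and at 9.65, 9.58, 9.91 and 9.75 in control samples, a 1.71-fold higher level (adjusted p = 0.0163). Pcna, the sliding clamp of DNA replication, was lower by a small amount (-0.29, adjusted p = 0.00678). These 2 were the only called genes among 29 of the cell cycle (3.45% in each direction, against 1.33% of all genes higher and 2.23% lower), whose median was -0.11. Ccnd1 was at adjusted p = 0.0503 with the mean over its probe sets.

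Of 16 genes tested in the myogenic commitment list, 3 were lower (18.8%, against 2.23% of all genes) and none higher. The list holds the inhibitors Id3 and Id1 beside activators such as Myod1, so the count gives no direction for commitment. Id3, an inhibitor of the myogenic helix-loop-helix factors, averaged 10.95 ± 0.03 in high-fat and 11.24 ± 0.08 in control samples (SD, n = 4 each), without overlap (-0.29 ± 0.06, adjusted p = 0.00842). Myod1, the master regulator of the myogenic programme, differed by -0.32 (adjusted p = 0.0387), but missed the threshold under both rescalings (0.0631 and 0.0593) and without 1 of 6 arrays (high-fat 1, 2 or 4, control 2, 3 or 4; up to 0.146). The third was Id1, a relative of Id3 (-0.54, adjusted p = 0.0356), whose samples overlapped between the diets. Id3 alone was called without replicate 1 or 4 of the high-fat diet or replicate 3 or 4 of the control diet. From the list of quiescence genes, 1 of 22 was lower (4.55%, against 2.23% of all genes). This gene, Rgs2, a brake on G protein signalling, differed by a modest amount (-0.35, adjusted p = 0.0104), at 9.46 to 9.84 in high-fat and 9.77 to 10.07 in control samples, and its samples overlapped; with the probe set of largest variance its adjusted p was 0.340.

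Of 21 clock genes tested, Nfil3, a repressor in the output loop of the clock, was the only one called (4.76% lower, against 2.23% of all genes). It averaged 10.16 ± 0.06 in high-fat and 10.41 ± 0.15 in control samples (-0.25, adjusted p = 0.0318). The call was lost after cyclic loess (0.0797) and median subtraction (0.057), and without any array other than control replicates 1 and 3 (up to 0.148). Cry1, a core repressor, had a value of -0.36 with non-overlapping samples and an adjusted p of 0.0793. The list had no common direction: 10 of its 21 genes had a difference above 0 and 11 below, from -0.36 to 0.41. The median of the list was -0.01 on the deposited scale and changed sign to 0.03 and 0.02 under the rescalings.

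Whether the ZT0 difference departed from the other times of day was tested in the same fit, as the ZT0 difference minus the mean of the differences at the other 5 times. It passed for 95 genes (0.926%), 24 upwards and 71 downwards. Of the 95, 77 were also called at ZT0, against 3.56% of all genes, but the departure contains the ZT0 difference, so such overlap is built in. The count was the most fragile of all. It was 9 without high-fat replicate 4, 23 without control replicate 1, 32 without high-fat replicate 1, and 53, 37, 56 and 40 without high-fat replicate 2 or control replicates 2, 3 or 4. It was 20 without the ZT16 arrays, an alternative added after the data were seen, and the time with the most calls between the diets was ZT16. There 1360 genes were called (13.3%), against 32 at ZT4 (0.312%), 183 at ZT8 (1.78%), 88 at ZT12 (0.858%) and 84 at ZT20 (0.819%).

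Of 28 departures among the genes named, 7 passed in all 8 refits without 1 array and without the ZT16 arrays. Nr4a1 departed by -0.45 ± 0.08 (adjusted p = 0.0045). Its high-fat ZT0 mean was the lowest of the 12 groups, and its differences at the other times lay between -0.18 and 0.16. Nr4a2 departed by -0.64, with the lowest group mean in high-fat and the highest in control samples at ZT0, although the departure was lost with the mean over probe sets and the probe set of largest variance (adjusted p = 0.147 and 0.242). Fbxo33 departed by -0.76 and had the highest of the 12 means in control samples at ZT0. Its high-fat ZT0 mean was the lowest by a narrow margin (7.87, against 7.88 in high-fat samples at ZT8). The Fbxo33 difference was 0.18 at ZT4, -0.38 at ZT8 and -0.33 at ZT12, none called. Kpna6 departed by -0.76 ± 0.13, and its difference was 0.27 at ZT4 and -0.27 at ZT20. Zfp622 departed by -0.62 and Scn7a by -1.2. Scn7a and Zfp622 were higher on the high-fat diet at ZT16, by 1.03 and 0.45, both called, so their ZT0 differences ran the other way. Nfkbiz, an inducible regulator of NF-kB target genes, departed by -0.57. Its ZT0 value of -0.25 was not called, and it was higher in high-fat samples at ZT12 (0.43) and ZT16 (0.61), both called. Nr4a1, Fbxo33 and Kpna6 passed under every alternative, and Scn7a, Zfp622 and Nfkbiz missed the threshold under 1 choice of probe sets each.

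**Figure D4:**
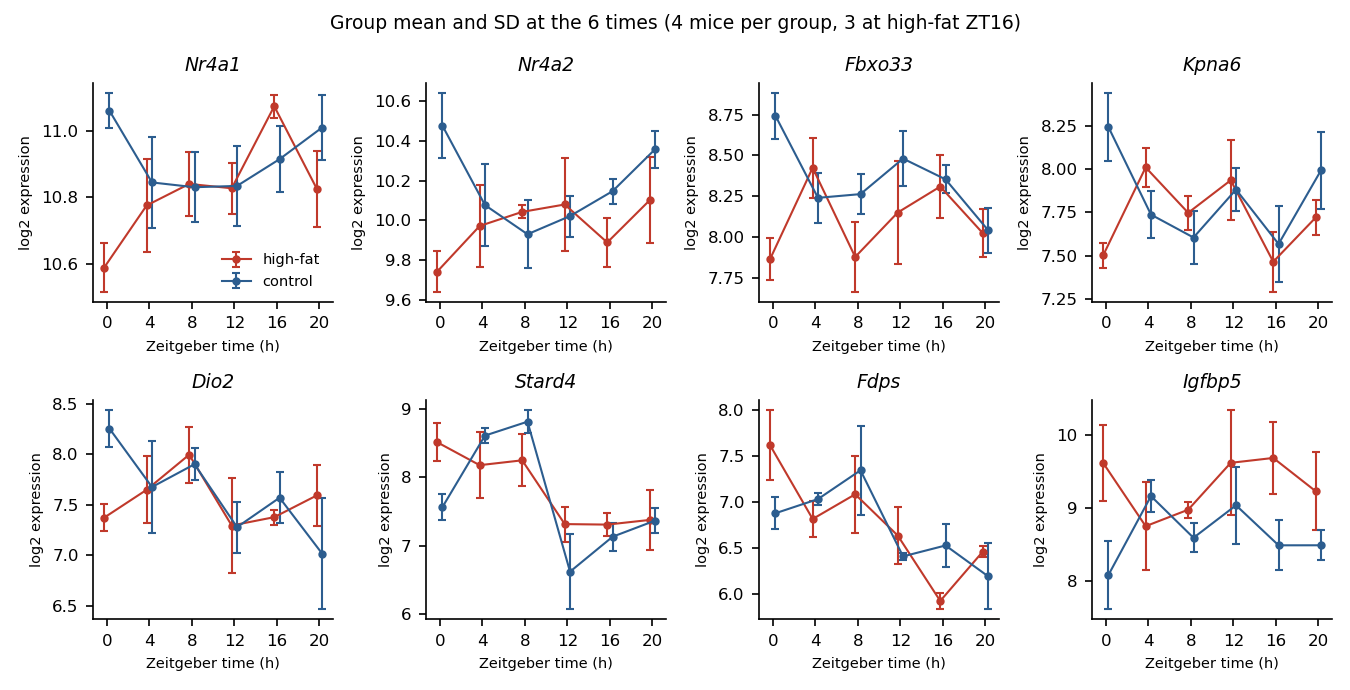
Group means with SD (log2, y axes not starting at 0) of 8 genes at the 6 zeitgeber times (x axis, h) in high-fat (red) and control (blue) samples, with 4 mice a group and 3 for high-fat ZT16. At ZT0 the high-fat mean is below the control mean for Nr4a1, Nr4a2, Fbxo33, Kpna6 and Dio2 and above it for Stard4, Fdps and Igfbp5; the Stard4 means cross at ZT4, where the difference is -0.43.

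The other 21 departures were lost without at least 1 array, with highest adjusted p per gene of 0.0536 to 0.192. Among them, Stard4 departed by 0.97 and Fdps by 0.86. Stard4 differed by -0.43 at ZT4, -0.56 at ZT8 and 0.70 at ZT12, none called, and its departure reached an adjusted p of 0.157 without high-fat replicate 4. Fdps was lower in high-fat samples at ZT16 (-0.60), which was called, and its departure reached 0.123 without high-fat replicate 2. Sgms1 departed by 0.85 and reached 0.073 without control replicate 3, and Dio2 departed by -0.98 and reached 0.0949 without control replicate 4. At ZT16 Slc7a8 (1.14), Ppp1r15a (0.32) and Fosl2 (0.35) were called higher on the high-fat diet, and their departures include this reversal. Without the ZT16 arrays these departures were -0.50, -0.32 and -0.18 (adjusted p = 0.158, 0.0708 and 0.266 in limma). Ier3 (0.32) and Klf15 (0.55), whose departures did not pass, were called higher at ZT16 too.

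None of the 3 NF-kB genes called at ZT0 passed the departure test. The Birc3 differences were 0.49, 0.68, 0.14, 0.64 and 0.33 from ZT4 to ZT20, with a departure of 0.24 (adjusted p = 0.5). Tnfaip3 averaged 0.57 over the other times, above its ZT0 difference of 0.49, with the largest value of 1.51 at ZT16. Igfbp5 was higher by 1.2 at ZT16 and had values of -0.41, 0.39, 0.58 and 0.74 at ZT4, ZT8, ZT12 and ZT20, none called, and its departure of 1.04 missed the threshold (adjusted p = 0.13). A missed threshold does not show that the effect is alike at all times.

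Over all genes, the correlation of the ZT0 difference with that at another time, given as a description across 10258 genes that are not independent, was -0.115 for ZT4, 0.243 for ZT8, 0.286 for ZT12, 0.153 for ZT16 and 0.159 for ZT20. Of the 365 genes called at ZT0, 4, 12, 9, 70 and 6 were also called at ZT4, ZT8, ZT12, ZT16 and ZT20. That is 1.10%, 3.29%, 2.47%, 19.2% and 1.64% of the ZT0 calls, and 12.5%, 6.56%, 10.2%, 5.15% and 7.14% of the calls at those times. The direction was the same for 2 of 4, 12 of 12, 9 of 9, 48 of 70 and 6 of 6. Over all genes, called or not, the share with the same sign was 46.4%, 57.2%, 58.2%, 55.3% and 55.5%, and the share called at each time is given above (0.312% to 13.3%). No mouse is shared between these contrasts.

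**Figure D5:**
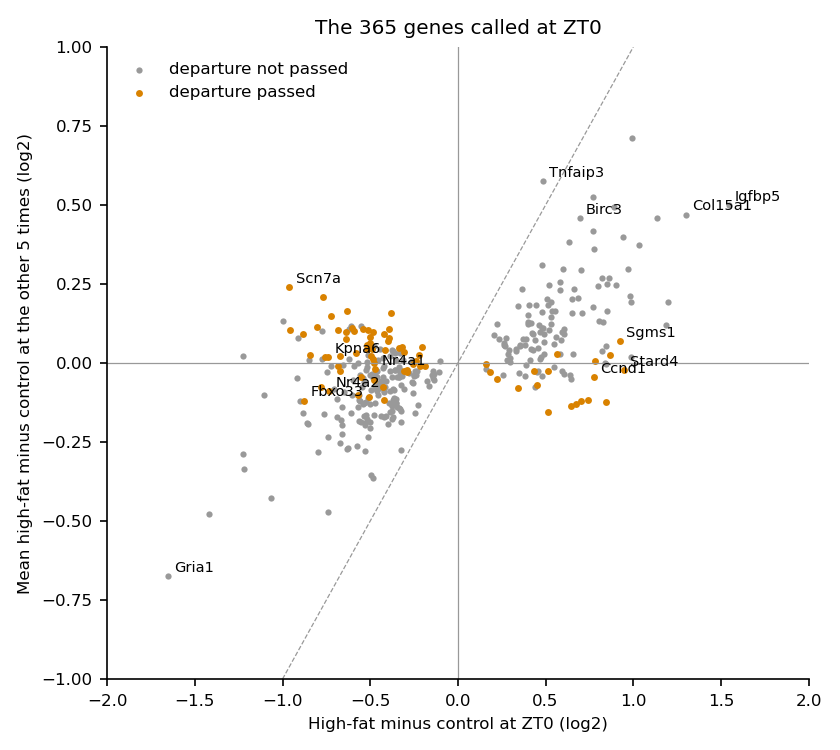
For the 365 genes called at ZT0, the high-fat minus control difference at ZT0 (x axis, log2) against its mean over the other 5 times (y axis, log2); the dashed line marks equal values and orange points are genes whose departure passed. Most points lie near 0 on the y axis, and Igfbp5 (1.54 and 0.50), Birc3 and Tnfaip3 lie above it.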

How the data were processed

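RNA of satellite cells was hybridised to Affymetrix expression arrays, 1 per mouse, 47 in all. The authors deposited 1 log2 value per probe set and array, made with RMA per the submitters' processing notes, whose version is not given in the sources used here. RMA sets all arrays to a like distribution (array medians of 5.86 to 5.94), so a difference is read against most other genes and is compressed near background. The number of arrays limits the precision.

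Of 45141 probe sets, 28898 carry 1 gene symbol in GEO's platform annotation, 551 several and 15588 none, besides 104 control probe sets; 28689 symbols were updated by gene identifier. Each of 17097 genes was represented by its brightest probe set (mean of the 47 arrays). Genes under the 40th percentile (5.80) were left out, leaving 10258.

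limma 3.58.1 in R 4.3.3 was fitted to the 12 group means of all 47 arrays (lmFit, eBayes with an intensity trend), so that all groups share 1 estimate of spread. Tests were two-sided, with Benjamini-Hochberg adjustment over 10258 genes and a threshold of 0.05. The labels name biological replicates. Same-numbered replicates did not deviate together (correlations of -0.026, 0.004, -0.006 and 0.114), so no block was used.

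The genes named are the 15 largest called differences per direction without overlap, up to 4 members per list by p, the 10 smallest departure p, and clock genes; cell type markers outside this rule are given as levels, chosen after their values were seen. The lists and the comparison were chosen with earlier results of these data known, and list counts have no test. The script was tested on simulated data. Alternatives were the arrays in the fit, filter, variance model, array weights, scaling, probe set choice, replicate block and the omission of each array.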

Additional observations from a re-analysis of the deposited data

Results flagged for a closer look

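In 7 of 148 groups of 4 samples, 1 sample stood apart by Dixon's criterion, where chance gives about 1 in 20. Id1 was not among the genes checked. These were, in high-fat samples, Kpna6 in replicate 4 (7.39), Atg101 in replicate 4 (6.05) and Steap4 in replicate 1 (9.99). In control samples they were Gria1 in replicate 1 (7.26), Btbd11 in replicate 4 (6.41), 4930562F07Rik in replicate 2 (7.86) and Greb1, an estrogen-responsive gene, in replicate 3 (9.22). Greb1 was not called (-1.49, adjusted p = 0.101).

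For 28 named genes the ZT0 difference differed from the mean of the other 5 times at an adjusted p under 0.05 in limma. The departures downwards were, on the log2 scale, -0.64 for Nr4a2, -0.45 for Nr4a1, -0.25 for Fosl2 and -0.42 for Egr2 among immediate early genes. They were -0.76 for Fbxo33, -0.31 for Sgk1, -0.76 for Kpna6, -0.38 for Ppp1r15a, -0.78 for Slc7a8, -0.98 for Dio2, -1.2 for Scn7a and -1.06 for Rab11fip5. Further ones were -0.57 for Nfkbiz, -0.62 for Zfp622, -0.46 for Htra3, -0.18 for Sf3b1, -0.87 for Dixdc1, -0.24 for Rps15 and -0.20 for Rps21. The remaining ones were -0.25 for Ftl1, -0.47 for Bbc3, -0.26 for Pcna and -0.27 for Id3. The departures upwards were 0.97 for Stard4, 0.86 for Fdps, 0.85 for Sgms1, 0.84 for Msrb3 and 0.82 for Ccnd1. Of the 28, 7 passed without any 1 array (Nr4a1, Nr4a2, Fbxo33, Kpna6, Scn7a, Nfkbiz and Zfp622). Several downward departures, such as those of Slc7a8 and Scn7a, also include a called difference the other way at ZT16 (1.14 and 1.03).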

How the results depend on the processing

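In the fit of the 8 ZT0 arrays alone, 86 genes were called (37 higher, 49 lower), 21 of them list members, against 365 (136 and 229) and 62 with all 47 arrays. The 66 called genes named, as counted below, leave out Id1. Of the 66 called genes named, 30 missed the threshold there (adjusted p up to 0.155), among them Ppp1r15a (0.056), Slc7a8 (0.0653), Zim1 (0.0533), Msrb3 (0.0818), Zfp622 (0.0521), Htra3 (0.0653), Rps21 (0.0963), Ftl1 (0.0653), Pcna (0.0653) and Rgs2 (0.122), which withstood the omission of any 1 array. With the replicate block, 224 genes were called at ZT0 (86 higher, 138 lower), 44 departures and 37 list genes. The replicate numbers did not pair the samples, and why the block lowered the counts was not tested. Leaving out each ZT0 array gave 122 to 426 called genes, 48 to 135 higher, 74 to 291 lower, 9 to 101 departures and 28 to 70 list genes. In each case the lowest count came without high-fat replicate 4 and the highest without high-fat replicate 3. Departures numbered 53 without a filter on dim genes and 20 without the ZT16 arrays, an alternative chosen after seeing the data. Dixdc1 turned to 0.0844 at ZT0 and to a departure of 0.0197 with its probe set of largest variance; the cause was not tested. The other alternatives left the ZT0 count within 1.5 times, between 302 and 429. Of the same 66 genes, 34 were called without any 1 array. Under every alternative that tested them 18 were called, of which Mat2b, Vav3 and Sf3b1 were tested in 18 of the 19. Among genes named, the block ended the ZT0 calls of Fosl2, Klf15, Gria1, Btbd11, Flrt1, Mocs1, Col6a3, Col4a1, Igsf10, Tnfaip3, Cxcl1, Nfil3 and Cd68 (adjusted p 0.0508 to 0.108) and the departures of Fosl2, Sgk1, Rab11fip5, Sgms1, Msrb3, Ftl1, Bbc3, Pcna, Ccnd1 and Id3 (0.0624 to 0.139).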
